A study of Mus musculus with 16 samples.

Results

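The EGFR family was followed at the RNA level in KPC1199 cells, a mouse pancreatic ductal adenocarcinoma line, with and without a CRISPR guide against *Sin3B* and with and without interferon gamma (IFNγ). The set was chosen by gene name and holds 10 genes, all found in both count tables, out of 55414 named genes in the untreated table and 56980 in the IFNγ table. It comprised the receptors *Egfr*, *Erbb2* and *Erbb3*, the ligands *Areg*, *Ereg*, *Hbegf*, *Tgfa*, *Btc* and *Epgn*, and the feedback inhibitor *Errfi1*. The members were chosen with earlier results of these data known. Their values beside those of all genes therefore describe the set and do not test it. The 16 libraries belonged to 2 experiments. In the untreated experiment, 2 libraries carried the control guide (sgCtrL) and 2 carried the *Sin3B* guide (Sin3Bsg1), all with no treatment. In the IFNγ experiment, 3 libraries were made of each guide without IFNγ and 3 of each guide after 10 ng per mL IFNγ for 24 h. All groups shared the same tumor line, which was raised from a tumor of a genetic mouse model whose Cre driver, under a *Pdx* promoter, acts in pancreas. The guides were delivered by lentivirus together with Cas9. The libraries hold 1 *Sin3B* guide, so an effect of this guide and an effect of losing *Sin3B* cannot be told apart. The study states in general terms that its results rest on repeated independent experiments, but the sources used here do not say whether these replicate libraries came from separate cultures. The p-values therefore measure the spread between these libraries, which may be technical.

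The EGFR family are receptor tyrosine kinases that pair at the cell surface once a ligand binds. EGFR binds amphiregulin, epiregulin, HB-EGF, TGFα, betacellulin and epigen. ERBB2 has no known ligand and acts as a partner of the others, and ERBB3 has weak kinase activity, binds neuregulins and recruits PI3 kinase. The ligands are made as membrane-anchored precursors and are released by proteases such as ADAM17, and the paired receptors signal through the MEK and ERK kinases. ERRFI1 (MIG6) is induced by this signaling and blocks the EGFR kinase. In the pancreas, EGFR is known to take part in the formation of ductal tumors. SIN3B is a scaffold protein that brings histone deacetylases to chromatin.

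Sequences are shown for the cut that separates the genotypes and for the starts of 3 members whose levels moved under IFNγ. The Sin3Bsg1 guide matched the GRCm39 genome once, on the plus strand at chr8:73449982-73450001, inside the coding part of exon 1 of *Sin3b* (chr8:73449880-73484833 on the plus strand). The guide is given in lower case and the PAM that follows it in capitals.
Sin3Bsg1: tggctcccgctggggtcgttCGG
In the next lines, the 250 bases before the RefSeq start of *Areg* (chr5:91139349-91139598, plus strand), *Egfr* (chr11:16751953-16752202, plus strand) and *Errfi1* (chr4:150854820-150855069, plus strand, the downstream of 2 listed starts) are printed on build GRCm38.p6. Capitals mark matches on either strand to 5 motifs, namely AP-1 (TGANTCA), the GAS element of interferon response genes (TTCNNNGAA), the GC box (GGGCGG), the CRE (TGACGTCA) and the TATA box (TATAAA).
Areg: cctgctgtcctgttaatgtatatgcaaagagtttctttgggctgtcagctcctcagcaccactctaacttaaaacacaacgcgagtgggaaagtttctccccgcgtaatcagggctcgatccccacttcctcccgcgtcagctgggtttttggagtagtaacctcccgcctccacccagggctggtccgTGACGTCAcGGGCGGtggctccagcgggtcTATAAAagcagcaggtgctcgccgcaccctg
Egfr: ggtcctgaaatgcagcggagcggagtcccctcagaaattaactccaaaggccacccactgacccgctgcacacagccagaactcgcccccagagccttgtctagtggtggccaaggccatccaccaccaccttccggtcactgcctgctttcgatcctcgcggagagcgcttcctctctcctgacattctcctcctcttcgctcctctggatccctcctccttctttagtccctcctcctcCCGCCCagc
Errfi1: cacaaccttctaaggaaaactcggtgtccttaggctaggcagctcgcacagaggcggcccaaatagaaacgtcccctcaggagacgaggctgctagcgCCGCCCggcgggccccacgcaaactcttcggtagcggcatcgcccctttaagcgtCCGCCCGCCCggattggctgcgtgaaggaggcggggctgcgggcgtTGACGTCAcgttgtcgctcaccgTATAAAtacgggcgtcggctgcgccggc
The *Areg* window held a CRE whose first base lay 61 bases before the start, a GC box at 52 and a TATA box at 31. The *Errfi1* window held the same kinds of match, with a CRE at 51, a TATA box at 28 and GC boxes at 152, 97 and 93, the last 2 of which overlap. A second *Errfi1* start in the RefSeq table, chr4:150853546-150853795, held none of the motifs in its window, and the *Erbb2* and *Btc* windows held none. The *Tgfa* window, not printed here, held GC boxes at 126 and 15, and the *Epgn* window a TATA box at 86. The *Egfr* window held a GC box at 9 and no other match. Of 32851 promoter windows of this length in the RefSeq table, 1.55% held the CRE, 12.4% the TATA box and 32.7% the GC box, against 6.75% for AP-1 and 7.02% for GAS. Promoter entries were matched for 7 of the 10 members. These matches are a description of letters in a window.

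By the GENCODE annotation on GRCm39, 4 of the 6 ligands lie within 376 kb of each other on chromosome 5, in the order *Epgn* (91175323 to 91183074), *Ereg* (91222157 to 91241505), *Areg* (91287451 to 91296291) and *Btc* (91505120 to 91550883). *Egfr* (16702198 to 16868158) and *Erbb2* (98303203 to 98328542) share chromosome 11 at a distance. *Erbb3* is on chromosome 10, *Tgfa* on 6, *Errfi1* on 4 and *Hbegf* on 18. Exons of *Erbb2* overlap those of *Mien1* on the other strand, and exons of *Ereg*, *Hbegf*, *Tgfa* and *Errfi1* overlap predicted gene models on the other strand. The strand setting of the counting is not given in the sources used here, so reads of such pairs could not be assigned to a strand.

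The 4 untreated libraries held 29683181 to 32311721 estimated counts each, and the 12 of the IFNγ experiment 18128055 to 27056903. Levels are given as CPM, a gene's share of its library on sizes scaled by TMM, or as TPM, which also divides by gene length, where genes are compared with each other. *Sin3b*, the targeted gene, was read at 88.6 and 83.4 CPM in sgCtrL untreated and at 36.5 and 34.1 CPM in Sin3Bsg1 untreated. In the IFNγ experiment it lay between 80.4 and 95.6 CPM in the 6 sgCtrL libraries and between 33.6 and 39.4 CPM in the 6 Sin3Bsg1 libraries, and the groups did not overlap. The log2 fold changes were -1.28, -1.24 and -1.22, so that a part of the transcript was still counted under the knockout label. IFNγ raised *Irf1*, a direct interferon response gene, by 3.51 in sgCtrL and 3.57 in Sin3Bsg1 on the log2 scale. In sgCtrL with IFNγ, replicate 1 stood apart, since its chi-square averaged over genes was 23.2 against replicate 2 and 19.5 against replicate 3, while the other two gave 4.12 with each other. In Sin3Bsg1 with IFNγ, replicate 1 was also further from the others, though by less (6.91 and 9.63, against 3.52 between replicates 2 and 3). Results that rest on replicate 1 of sgCtrL with IFNγ are given with and without it where a call changed.

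Keratins of ductal epithelium were abundant in every library, whereas *Epcam* was low. The summed TPM of the ductal epithelial markers *Krt8*, *Krt18*, *Krt19*, *Epcam* and *Cdh1* ran from 3776 to 7234 over the 6 groups and was carried by the keratins, of which *Krt19* had the lowest group mean, 974 TPM. The group means of *Cdh1* lay between 35.8 and 133.2 TPM and those of *Epcam* between 4.58 and 17.4 TPM, and *Epcam* was below the fibroblast marker *Pdgfra* in every group except Sin3Bsg1 untreated. The leukocyte list summed to between 9.57 and 14.6 TPM, nearly all from *Cd68*, with *Cd3e* and *Adgre1* at 0 in every library. The endothelial list stayed at or below 0.389 TPM. The fibroblast list ran from 9.88 to 89.3 TPM, carried by *Pdgfra* and *Pdgfrb*, while *Dcn*, *Lum* and *Thy1* were at or near 0. In bulk RNA, fewer cells of a type and less RNA per cell cannot be told apart.

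Among the receptors *Erbb2* had the highest level in every group, while the order of *Egfr* and *Erbb3* differed between groups. In sgCtrL untreated the mean levels were 68.5 ± 1.66 TPM for *Erbb2*, 6.77 ± 0.309 TPM for *Erbb3* and 2.76 ± 0.0149 TPM for *Egfr* (SD, n = 2). In sgCtrL without IFNγ they were 43.1 ± 0.965 TPM, 4.68 ± 0.385 TPM and 8.50 ± 0.855 TPM in the same gene order (SD, n = 3), so *Egfr* stood above *Erbb3* with no overlap. In Sin3Bsg1 *Erbb3* stood above *Egfr* in untreated cells (15.2 ± 0.622 against 1.997 ± 0.221 TPM, SD, n = 2) and without IFNγ (7.93 ± 0.553 against 4.96 ± 0.546 TPM, SD, n = 3), with no overlap in either. With IFNγ *Egfr* stood above *Erbb3* in both genotypes, at 11.5 ± 0.458 against 3.45 ± 0.361 TPM in sgCtrL and 6.82 ± 0.477 against 5.22 ± 0.384 TPM in Sin3Bsg1 (SD, n = 3), again with no overlap. *Erbb2* held from 69.1% to 87.8% of the summed receptor TPM over the 6 groups. Between the ligands, *Hbegf* at 10.8 ± 1.13 TPM and *Tgfa* at 9.85 ± 0.789 TPM were the highest in sgCtrL without IFNγ (SD, n = 3), and this pair did not differ beyond its spread. *Btc* at 4.18 ± 0.504 TPM and *Areg* at 3.33 ± 0.272 TPM followed, without overlap. In sgCtrL untreated *Areg* led at 22.4 ± 1.78 TPM, ahead of *Hbegf* at 14.4 ± 0.686 TPM, *Tgfa* at 11.4 ± 0.799 TPM and *Btc* at 8.23 ± 0.181 TPM (SD, n = 2). The tables come from separate experiments, and the difference between them was not tested. *Errfi1* lay between 100.5 and 154.4 TPM over all libraries.

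**Figure D1:**
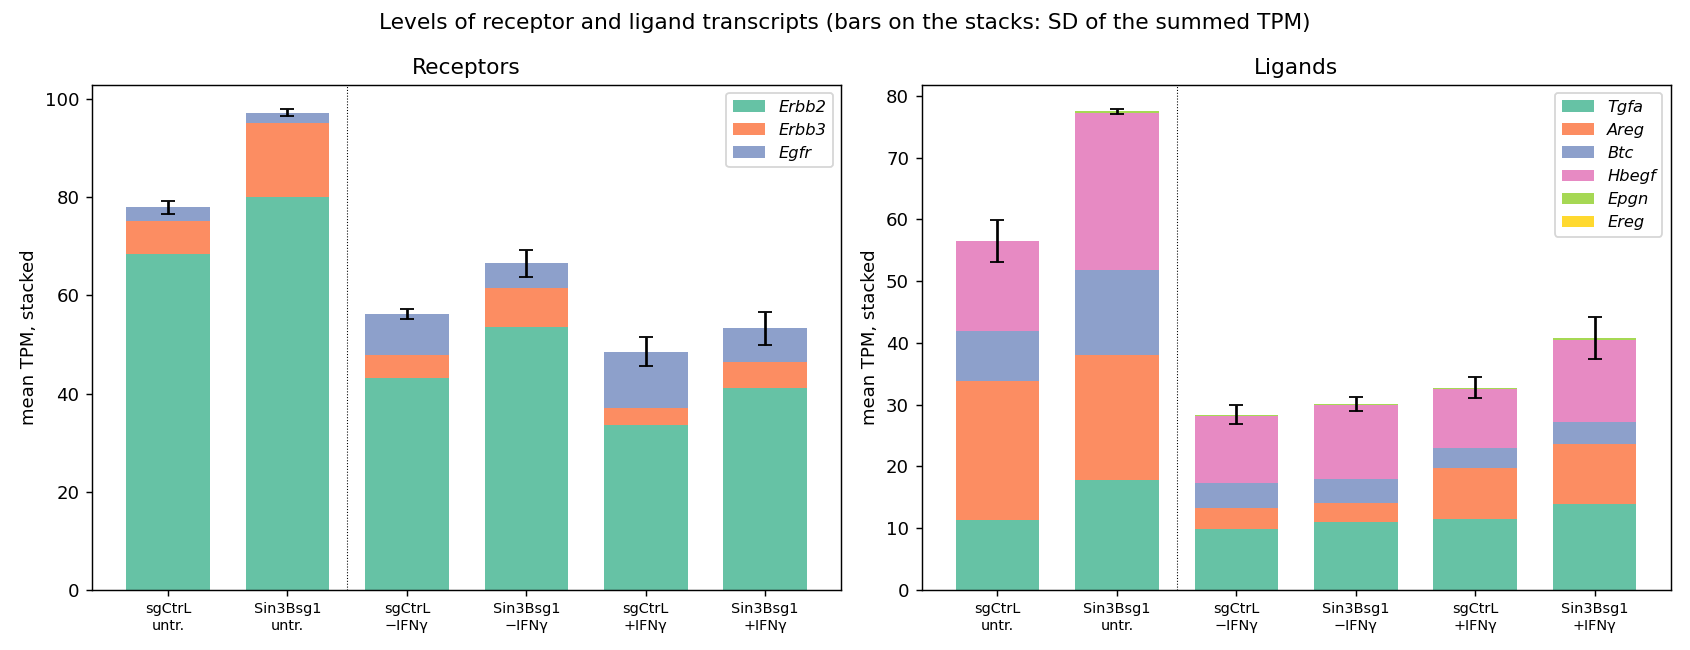
Mean TPM of the 3 receptors (left) and 6 ligands (right) stacked by group, with the SD of the summed TPM over 2 libraries per group left of the dotted line and 3 right of it. *Erbb2* makes up most of the receptor stack in each group, and the ligand stack is highest in Sin3Bsg1 untreated, at 77.5 ± 0.375 TPM.

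*Ereg* and *Epgn* were hardly read. *Ereg*, which encodes epiregulin, had 0 to 3 counts per library and *Epgn*, which encodes epigen, 0 to 10, and neither passed the filter on low counts in either experiment. Epiregulin and epigen transcripts were therefore not detectable as different between groups at this depth. The other 8 members were tested in both experiments.

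Loss of *Sin3B* went with more *Erbb3* and *Erbb2*, less *Egfr*, and more of 3 ligands in untreated cells. Of the 8 members tested, 5 rose and 2 fell in Sin3Bsg1 (7 called), against 31.2% of all 14589 genes tested called (15.1% higher and 16.0% lower). The median absolute log2 fold change was 0.56 over the tested members and 0.14 over all genes tested. *Erbb3* was read at 19.2 and 20.5 CPM in sgCtrL and at 43.3 and 45.7 CPM in Sin3Bsg1. Both knockout libraries lay above both controls, 2.24-fold on average (log2 1.16, SE 0.065, adjusted p = 1.03e-09, edgeR quasi-likelihood test). *Erbb2* was at 169.8 and 164.5 CPM in sgCtrL and at 196.4 and 195.0 CPM in Sin3Bsg1. This was a smaller rise with no overlap (log2 0.23, SE 0.028, edgeR adjusted p = 1.07e-05). *Egfr* was at 13.6 and 13.8 CPM in sgCtrL and at 9.19 and 10.7 CPM in Sin3Bsg1. It fell by 0.47 on the log2 scale (SE 0.10, edgeR adjusted p = 0.00257), with both knockout libraries below both controls.

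The ligands *Hbegf*, *Btc* and *Tgfa* rose in the same untreated cells. *Hbegf*, whose product binds heparin as well as EGFR, was at 17.2 and 16.2 CPM in sgCtrL and 29.2 and 29.6 CPM in Sin3Bsg1. *Btc*, which encodes betacellulin, was at 11.7 and 11.4 CPM against 17.6 and 21.2 CPM. *Tgfa*, which encodes TGFα, was at 26.3 and 23.9 CPM against 40.1 and 38.6 CPM. In each of these 3 ligands the groups did not overlap, and the log2 fold changes were 0.82 (SE 0.074), 0.75 (SE 0.10) and 0.65 (SE 0.066), with edgeR adjusted p of 3.37e-07, 2.42e-05 and 1.08e-06. With so few libraries per group, a gene without any effect can also show no overlap. The share of all genes without overlap was not counted, so lack of overlap is given throughout as description and not as a test. *Areg*, which encodes amphiregulin, was at 14.0 and 12.5 CPM in sgCtrL and 12.5 and 11.4 CPM in Sin3Bsg1, a log2 difference of -0.15 (SE 0.10) that did not pass the test (edgeR adjusted p = 0.305). Its groups did not overlap either, by a narrow margin. The inhibitor *Errfi1* was at 228.0 and 229.1 CPM against 193.5 and 198.5 CPM, and fell by 0.22 on the log2 scale (SE 0.026, edgeR adjusted p = 6.39e-06). In the untreated experiment, epithelial and fibroblast markers moved with genotype as well. All 5 epithelial markers rose, with *Cdh1* (E-cadherin) at 1.08 on the log2 scale, and the summed epithelial TPM ran from 5414 to 5432 in sgCtrL and from 7125 to 7234 in Sin3Bsg1. Of the 3 fibroblast markers tested 2 fell, and that list summed to 31.2 to 31.7 TPM in sgCtrL and 9.88 to 10.9 TPM in Sin3Bsg1. Their part in the result was not tested.

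**Figure D2:**
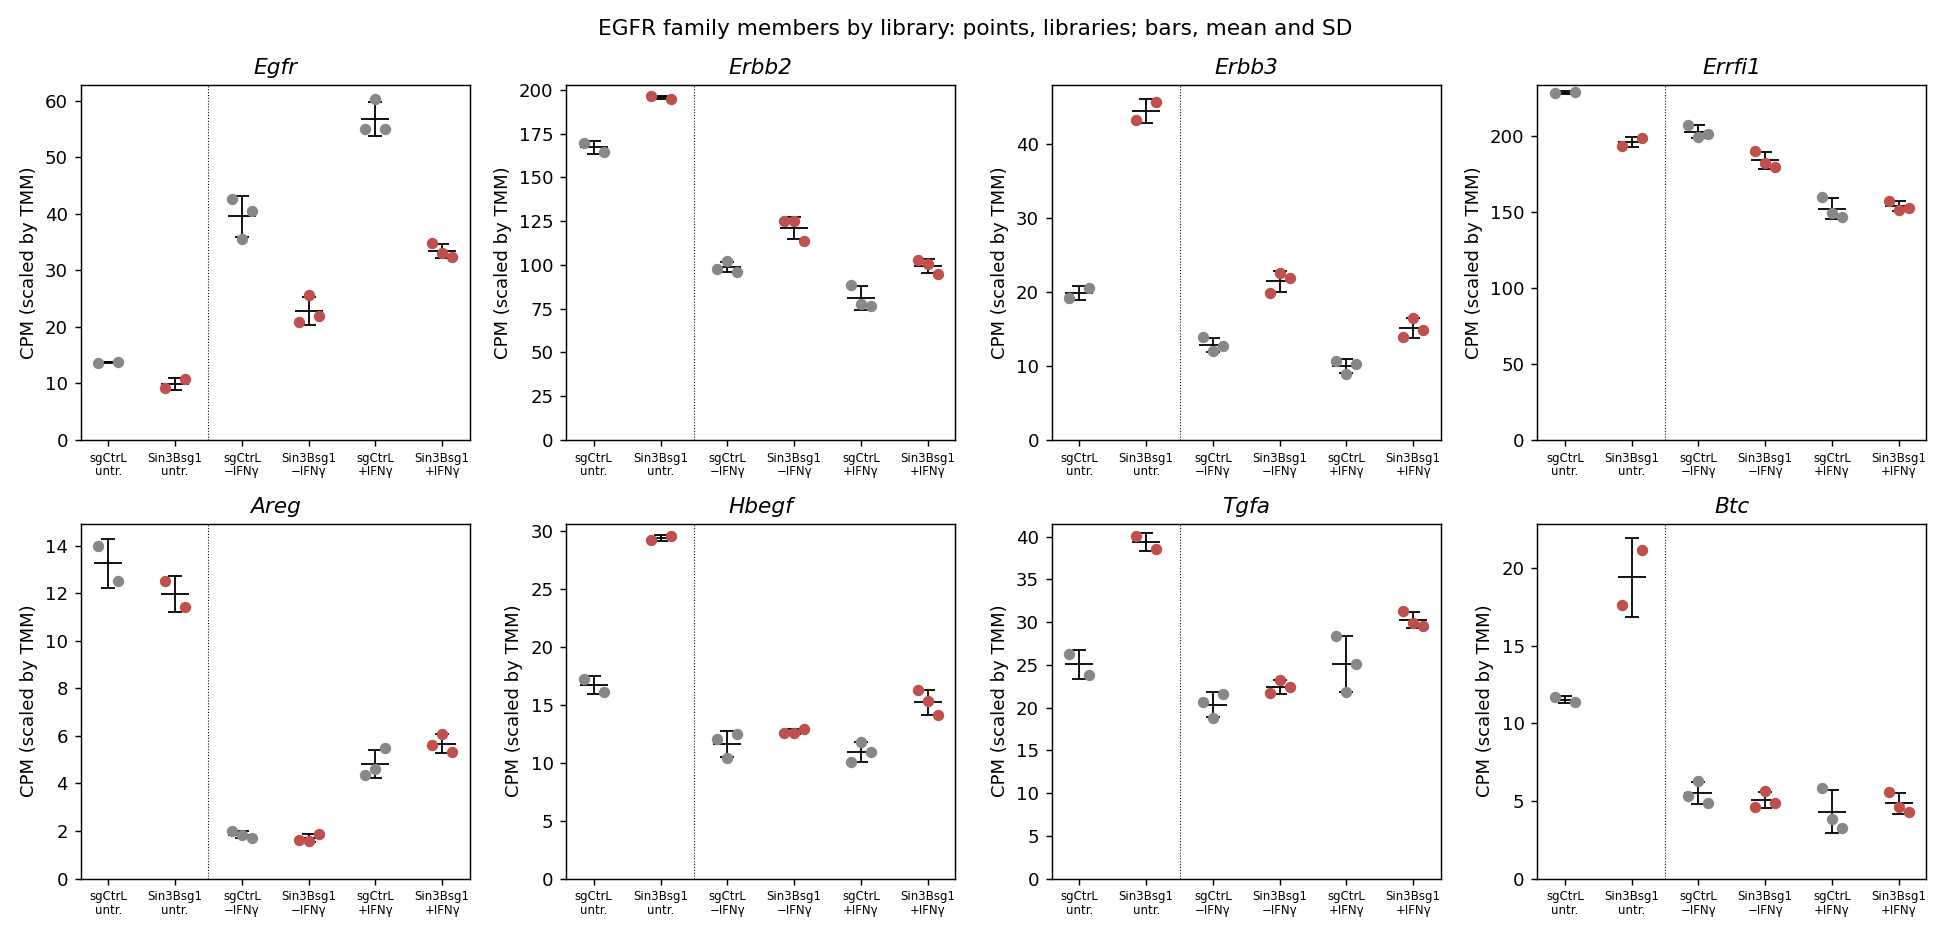
CPM of the 8 tested members in each library (points; grey sgCtrL, red Sin3Bsg1), with the mean and SD of each group and the untreated experiment left of the dotted line. *Erbb3* is higher and *Egfr* lower in Sin3Bsg1 in each of the 3 pairs of groups, and *Areg* is highest with IFNγ within the IFNγ experiment.

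In the IFNγ experiment without the cytokine, all 3 receptors differed between the genotypes and none of the 4 ligands tested passed. Of the 8 members tested, 2 rose and 2 fell (4 called), against 17.2% of all 14913 genes tested called (7.89% higher and 9.32% lower). The median absolute log2 fold change was 0.14 over both the tested members and all genes tested. *Egfr* was at 42.6, 35.6 and 40.6 CPM in sgCtrL and at 20.9, 25.7 and 21.8 CPM in Sin3Bsg1. Each knockout library lay below each control, and *Egfr* fell by 0.79 on the log2 scale (SE 0.083, edgeR adjusted p = 5.21e-06). *Erbb3* was at 13.9, 12.02 and 12.7 CPM in sgCtrL and 19.9, 22.6 and 21.9 CPM in Sin3Bsg1, a 1.67-fold rise (log2 0.74, SE 0.093, edgeR adjusted p = 3.34e-05). *Erbb2* was at 97.8, 102.0 and 96.2 CPM against 124.8, 124.9 and 113.6 CPM, again without overlap (log2 0.30, SE 0.060, edgeR adjusted p = 0.0026). The ligands gave log2 differences of 0.13 for *Hbegf*, 0.14 for *Tgfa*, -0.13 for *Btc* and -0.12 for *Areg*, with SE from 0.087 to 0.19 and edgeR adjusted p from 0.302 to 0.725. The groups of *Hbegf* and of *Tgfa* did not overlap here either, although neither ligand passed, while those of *Btc* and *Areg* overlapped. Whether the genotype effects on *Hbegf*, *Tgfa* and *Btc* differ from those in the untreated experiment was not tested. *Errfi1* was at 207.4, 199.4 and 201.4 CPM in sgCtrL and 190.3, 182.4 and 179.5 CPM in Sin3Bsg1 and fell by 0.14 on the log2 scale (SE 0.045, edgeR adjusted p = 0.0463). That call was lost on leaving out any 1 of the 6 libraries compared (edgeR adjusted p from 0.0575 to 0.165), replicate 2 of sgCtrL with IFNγ or any 1 replicate of Sin3Bsg1 with IFNγ (from 0.0788 to 0.106), and under DESeq2 (adjusted p = 0.051). Of the epithelial markers 2 of 5 rose, *Krt18* and *Cdh1* (log2 0.17 and 0.92), with summed TPM of 3776 to 3854 in sgCtrL and 4067 to 4164 in Sin3Bsg1. Of the fibroblast markers *Pdgfra* fell and *Pdgfrb* rose (summed 85.3 to 89.3 against 74.8 to 79.5 TPM). Their part in the receptor result was not tested.

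With IFNγ, all 3 receptors passed the genotype test, and so did 2 ligands. Of the 8 members tested, 4 rose and 1 fell in Sin3Bsg1 (5 called), against 16.5% of all genes tested called (8.62% higher and 7.89% lower). The median absolute log2 fold change was 0.28 over the members and 0.14 over all genes. *Egfr* was at 54.9, 60.3 and 55.1 CPM in sgCtrL and at 34.8, 33.2 and 32.4 CPM in Sin3Bsg1, and fell by 0.76 on the log2 scale (SE 0.078, edgeR adjusted p = 5.26e-06). *Erbb3* was at 10.7, 8.95 and 10.3 CPM in sgCtrL and 13.9, 16.6 and 14.9 CPM in Sin3Bsg1 (log2 0.60, SE 0.097, edgeR adjusted p = 0.000371). *Erbb2* was at 88.7, 77.6 and 76.6 CPM against 102.5, 100.3 and 94.9 CPM (log2 0.30, SE 0.061, edgeR adjusted p = 0.00301). For each of these receptors the 2 groups did not overlap. *Hbegf* was at 10.1, 11.8 and 10.9 CPM in sgCtrL and 16.3, 15.3 and 14.1 CPM in Sin3Bsg1, a 1.39-fold rise without overlap (log2 0.47, SE 0.092, edgeR adjusted p = 0.00193). *Tgfa* was at 28.4, 21.9 and 25.1 CPM in sgCtrL, the widest spread of its groups, and at 31.3, 29.8 and 29.6 CPM in Sin3Bsg1. Its log2 fold change of 0.27 (SE 0.083, edgeR adjusted p = 0.0337) did not pass without replicate 2 or 3 of sgCtrL with IFNγ, or without any 1 replicate of Sin3Bsg1 with IFNγ (edgeR adjusted p from 0.0553 to 0.133). Without replicate 1 of sgCtrL with IFNγ, the library that stood apart, the 5 calls held. *Areg* (log2 0.23, SE 0.15), *Btc* (0.17, SE 0.20) and *Errfi1* (0.017, SE 0.046) did not pass. Here 4 of 5 epithelial markers rose, with summed TPM of 3828 to 4546 in sgCtrL and 5068 to 5254 in Sin3Bsg1, and their part in the result was not tested. Of the fibroblast markers *Pdgfra* fell and *Pdgfrb* rose (summed 57.0 to 58.3 TPM in sgCtrL and 49.1 to 55.2 TPM in Sin3Bsg1).

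**Figure D3:**
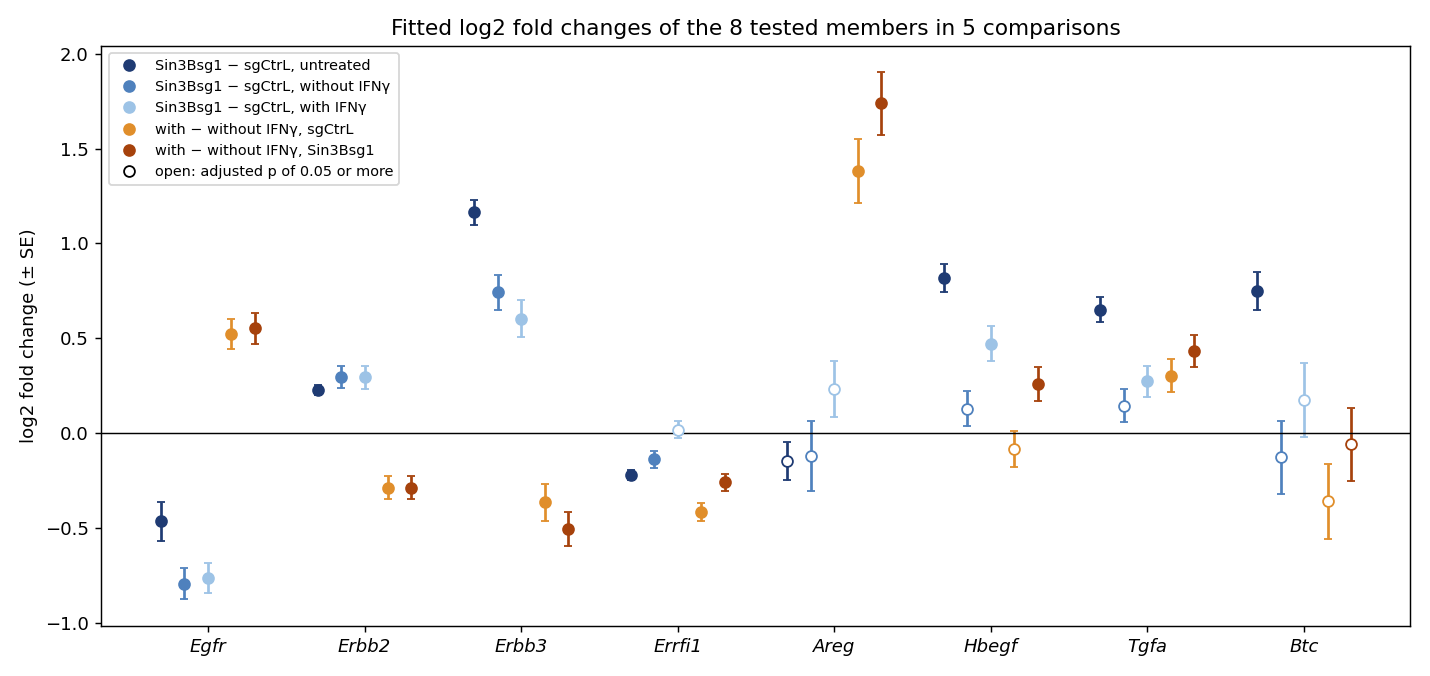
Log2 fold change with its SE for the 8 tested members in the 3 genotype comparisons (blue) and the 2 IFNγ comparisons (orange and brown), filled where the adjusted p was under 0.05. *Egfr* lies below 0 and *Erbb2* and *Erbb3* above 0 in each genotype comparison, and their IFNγ effects lie on the other side of 0.

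IFNγ raised *Areg* and *Egfr* and lowered *Erbb2*, *Erbb3* and *Errfi1* in both genotypes. In sgCtrL, 3 of the 8 members tested rose and 3 fell (6 called), against 30.2% of all genes tested called (15.7% higher and 14.5% lower). In Sin3Bsg1, 4 rose and 3 fell (7 called), against 28.4% called (16.1% higher and 12.3% lower). The median absolute log2 fold change of the members was 0.36 in both genotypes, beside 0.19 and 0.18 over all genes. The 2 IFNγ comparisons and the 2 genotype comparisons of this experiment share libraries, so their values are set side by side. *Areg* was at 1.995, 1.84 and 1.71 CPM in sgCtrL without IFNγ and at 4.38, 4.61 and 5.50 CPM with it. In Sin3Bsg1 it was at 1.64, 1.57 and 1.89 CPM without IFNγ and at 5.60, 6.10 and 5.33 CPM with it. In both genotypes every library with IFNγ lay above every library without it, by 2.61-fold in sgCtrL (log2 1.38, SE 0.17, edgeR adjusted p = 1.08e-05) and 3.34-fold in Sin3Bsg1 (log2 1.74, SE 0.16, edgeR adjusted p = 6.16e-07). The libraries without IFNγ held 32 to 44 *Areg* counts each. Even with IFNγ, the level of *Areg* in this experiment (8.25 ± 1.08 TPM in sgCtrL and 9.72 ± 0.755 TPM in Sin3Bsg1, SD, n = 3) was lower than the untreated experiment's values, across tables that were not tested against each other.

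The receptors moved by less under IFNγ. For *Egfr* the log2 fold changes were 0.52 (SE 0.078) in sgCtrL and 0.55 (SE 0.082) in Sin3Bsg1, with edgeR adjusted p of 9.27e-05 and 8.81e-05. For *Erbb2* both genotypes gave -0.29 (SE 0.061 and 0.060, edgeR adjusted p of 0.00204 and 0.0017). For *Erbb3* the values were -0.37 (SE 0.10) and -0.50 (SE 0.090), with edgeR adjusted p of 0.0111 and 0.000474. The *Erbb3* call in sgCtrL was lost without replicate 1 of sgCtrL without IFNγ (log2 -0.31, edgeR adjusted p = 0.0568). The groups did not overlap for any of these receptors in either genotype. Marker sums moved with IFNγ as well. *Pdgfra* and *Pdgfrb*, the 2 fibroblast markers tested, fell in both genotypes, to the summed levels given above, and of the 5 epithelial markers 1 rose and 2 fell in sgCtrL and 2 rose and 1 fell in Sin3Bsg1. Their part in the IFNγ results was not tested. As a share of summed receptor TPM, *Egfr* went from 15.1% ± 1.39 to 23.9% ± 2.09 in sgCtrL and from 7.45% ± 0.643 to 12.8% ± 0.278 in Sin3Bsg1 (SD, n = 3).

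*Errfi1* fell with IFNγ by 0.42 on the log2 scale in sgCtrL (SE 0.046, edgeR adjusted p = 3.49e-06) and by 0.26 in Sin3Bsg1 (SE 0.045, edgeR adjusted p = 0.000408). The treated libraries were at 159.8, 149.6 and 146.7 CPM in sgCtrL and 157.3, 151.4 and 152.8 CPM in Sin3Bsg1, all below the libraries without IFNγ given above. *Tgfa* rose by 0.30 in sgCtrL (SE 0.087, edgeR adjusted p = 0.0151) and by 0.43 in Sin3Bsg1 (SE 0.083, edgeR adjusted p = 0.000908). In sgCtrL the *Tgfa* call was lost without the library that stood apart, replicate 1 with IFNγ (log2 0.20, edgeR adjusted p = 0.0706), and without replicate 2 of sgCtrL without IFNγ (0.24, edgeR adjusted p = 0.0843). *Hbegf* rose in Sin3Bsg1 at 0.26 (SE 0.090, edgeR adjusted p = 0.0413), a call that was lost under DESeq2 (adjusted p = 0.106), and gave -0.083 (SE 0.095, edgeR adjusted p = 0.561) in sgCtrL. Leaving out any of the 3 Sin3Bsg1 libraries without IFNγ, replicate 1 or 2 of Sin3Bsg1 with IFNγ, or replicate 2 of sgCtrL with IFNγ also ended the *Hbegf* call (edgeR adjusted p from 0.0608 to 0.212). *Btc* gave -0.36 (SE 0.20, edgeR adjusted p = 0.191) in sgCtrL and -0.059 (SE 0.19, edgeR adjusted p = 0.865) in Sin3Bsg1. The 3 treated sgCtrL libraries held 5.87, 3.82 and 3.29 CPM of *Btc*, and without replicate 1, the highest, *Btc* fell by 0.64 on the log2 scale (edgeR adjusted p = 0.00937).

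The IFNγ effects were then compared between genotypes by the interaction term. None of the 8 members tested was called by edgeR, 2 of them had an unadjusted p under 0.05, and DESeq2 called 0 as well. Over all 14913 genes tested, 0.114% were called by edgeR and 808 genes had an unadjusted p under 0.05. *Hbegf* had the lowest unadjusted p (0.0192, edgeR adjusted p = 0.82), with an IFNγ effect 0.34 higher in Sin3Bsg1 on the log2 scale (SE 0.13). *Errfi1* came next (0.0278, edgeR adjusted p = 0.88), at 0.16 higher (SE 0.064). *Areg* gave 0.35 (SE 0.24). *Egfr* gave 0.029 (SE 0.11) and *Erbb2* -0.00038 (SE 0.086). Differences of the size of these standard errors were not detectable with 3 libraries per group.

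The other receptor and ligands of the family were measured for context. *Erbb4* and *Nrg3*, a receptor and a neuregulin, had at most 4 and 2 counts in a library. *Nrg1*, a ligand of ERBB3 and ERBB4, was the highest of them, at 9.52 ± 0.87 TPM in sgCtrL without IFNγ (SD, n = 3). It was at 14.7, 15.9 and 13.8 CPM in sgCtrL and 10.9, 10.8 and 10.4 CPM in Sin3Bsg1 with IFNγ, and fell by 0.47 on the log2 scale (SE 0.11, edgeR adjusted p = 0.00564). In untreated cells it fell by 0.48 (SE 0.15, edgeR adjusted p = 0.0265), and without IFNγ it gave -0.24 (SE 0.11), which did not pass (edgeR adjusted p = 0.148). *Egf* stayed at or below 0.841 TPM and *Nrg4* at or below 1.11 TPM, and neither passed in any of the 5 comparisons. *Nrg2* fell with IFNγ in sgCtrL (log2 -1.97, SE 0.66, edgeR adjusted p = 0.0339), on 9, 15 and 9 counts without IFNγ and 4, 1 and 4 with it.

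Further genes of the pathway were counted by direction in 5 lists. Of all genes tested, 31.2%, 17.2% and 16.5% were called for genotype in untreated cells, without IFNγ and with IFNγ. Under IFNγ 30.2% were called in sgCtrL and 28.4% in Sin3Bsg1. Whether a list differed from these shares was not tested. At most 3 genes are named with a log2 fold change per list and comparison, so a gene without one may also have passed there. For a few such genes mean levels are given without a test result. The interaction called 0 genes of the 5 lists. In the list for release of ligands, all 7 genes were tested, and 3 fell in Sin3Bsg1 untreated, 1 without IFNγ and 1 with it, while 0 rose. IFNγ raised 2 and lowered 2 of them in each genotype. *Timp3*, an inhibitor of ADAM17, fell in each genotype comparison (log2 -0.53, -0.29 and -0.15, edgeR adjusted p of 1.97e-10, 0.000162 and 0.0189). It rose with IFNγ in both genotypes, by 0.57 in sgCtrL and 0.71 in Sin3Bsg1. *Rhbdf1*, which helps to bring ADAM17 to the surface, fell in Sin3Bsg1 untreated (-0.26) and with IFNγ in both genotypes (-0.30 and -0.22). *Adam17* itself fell in untreated cells (-0.14), *Rhbdf2* fell with IFNγ in sgCtrL (-0.20) and *Adam10* rose with IFNγ in Sin3Bsg1 (0.19).

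Of 19 adaptor and cascade genes, 1 rose and 5 fell in Sin3Bsg1 untreated, 3 rose and 3 fell without IFNγ, and 3 rose and 3 fell with IFNγ. Over all genes tested, 31.2%, 17.2% and 16.5% were called in these 3 comparisons. *Plcg1*, the phospholipase that binds the activated receptor, fell in all 3 (log2 -0.26, -0.32 and -0.35). *Shc1*, an adaptor, fell in all 3 as well (-0.20, -0.22 and -0.29), and *Gab1*, another adaptor, fell in untreated cells (-0.33). *Ptpn11* was lower in Sin3Bsg1 than in sgCtrL without IFNγ (-0.22). *Mapk3*, which encodes ERK1, was higher in Sin3Bsg1 than in sgCtrL among the libraries with IFNγ (0.29). IFNγ itself raised 3 and lowered 6 of these genes in sgCtrL, where 30.2% of all genes tested were called. It raised 3 and lowered 5 in Sin3Bsg1, against 28.4% called. *Map2k1*, which encodes MEK1, rose in both (0.29 and 0.39), *Pik3r1* (-0.40) and *Mapk3* (-0.32) fell in sgCtrL, and *Nras* rose (0.27) and *Shc1* fell (-0.33) in Sin3Bsg1. Their mean levels went the same way in the other genotype. In Sin3Bsg1, *Pik3r1* went from 65.1 CPM without IFNγ to 57.5 CPM with it and *Mapk3* from 146.6 to 125.6 CPM. In sgCtrL, *Nras* went from 134.8 to 155.5 CPM and *Shc1* from 440.4 to 368.2 CPM.

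Among 12 tested genes of receptor turnover, *Cblc*, a ubiquitin ligase that acts on EGFR, rose 3.002-fold in Sin3Bsg1 untreated (log2 1.59, SE 0.13, edgeR adjusted p = 1.14e-07) and 1.67-fold without IFNγ (0.74, SE 0.15, edgeR adjusted p = 0.00237). Its level in sgCtrL was low, at 4.04 CPM untreated and 3.79 CPM without IFNγ. With IFNγ *Cblc* did not pass the genotype test, at 3.64 CPM in sgCtrL and 4.75 CPM in Sin3Bsg1. *Cblb*, a related ligase, was lower in Sin3Bsg1 than in sgCtrL both without IFNγ (-0.45) and with it (-0.30). In untreated cells *Socs4* was higher (0.30) and *Lrig1*, an inhibitor of the receptors, lower (-0.25) in Sin3Bsg1. *Lrig2* was lower in Sin3Bsg1 without IFNγ (-0.20), and *Rnf41* was higher in Sin3Bsg1 among the libraries with IFNγ (0.18). In counts, 2 rose and 3 fell in Sin3Bsg1 untreated, 2 and 2 without IFNγ, and 1 and 1 with IFNγ. Over all genes tested, 31.2%, 17.2% and 16.5% were called in these comparisons. Under IFNγ, 2 rose and 3 fell in sgCtrL, where 30.2% of all genes tested were called. In Sin3Bsg1 1 rose and 4 fell, against 28.4% called. With IFNγ *Sh3kbp1*, a partner of CBL, fell (-0.43 and -0.59) and *Ptpn2*, a phosphatase, rose (0.38 and 0.40) in both. *Rnf41* fell in sgCtrL (-0.17) and *Cblc* in Sin3Bsg1 (-0.41).

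Of 10 genes of ERK feedback, 1 was higher and 1 lower by the genotype test in untreated cells, 2 and 1 without IFNγ, and 1 and 0 with IFNγ. Among all genes tested 31.2%, 17.2% and 16.5% passed, so the share of the list lay below that of all genes in untreated cells and with IFNγ and above it without IFNγ. *Dusp6*, which encodes a phosphatase of ERK, rose in all 3 (log2 0.22, 0.18 and 0.20). *Spred3* fell in untreated cells (-0.26), and *Spry2* rose (0.37) and *Spry1* fell (-0.25) without IFNγ. IFNγ raised 2 and lowered 3 of these genes in sgCtrL, where 30.2% of all genes tested were called. It raised 2 and lowered 2 in Sin3Bsg1, against 28.4% called. *Dusp6* rose (0.48 and 0.50) and *Spry4* (-0.51 and -0.42) and *Dusp4* (-0.41 and -0.35) fell.

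Of the 15 early ERK genes, 6 rose and 3 fell in Sin3Bsg1 untreated, 3 rose and 0 fell without IFNγ, and 3 rose and 1 fell with it. Over all genes tested, 31.2%, 17.2% and 16.5% were called in these comparisons. *Jun* rose in all 3 (log2 0.36, 0.58 and 0.67). *Ccnd1* (0.43 and 0.38) and *Phlda1* (0.30 and 0.28) were higher in Sin3Bsg1 without and with IFNγ, and *Egr1* in untreated cells (0.29). The mean of *Egr1* was lower in Sin3Bsg1 in the IFNγ experiment. Without IFNγ it was 9.25 CPM in sgCtrL and 7.86 CPM in Sin3Bsg1, and with IFNγ 17.9 and 14.65 CPM. In untreated cells *Ccnd1* was also higher, at 471.7 ± 8.34 CPM in sgCtrL and 548.8 ± 3.18 CPM in Sin3Bsg1 (SD, n = 2). *Fosl1*, a subunit of AP-1, fell by 0.82 on the log2 scale in untreated cells (edgeR adjusted p = 1.66e-09). Under IFNγ 6 rose and 2 fell in sgCtrL, where 30.2% of all genes tested were called. In Sin3Bsg1 5 rose and 4 fell, against 28.4% called. *Jun* (1.39 and 1.48), *Egr1* (0.96 and 0.90) and *Atf3* (0.92 and 1.15) rose with IFNγ in both. The median log2 fold change of the early ERK genes was 0.059, 0.058 and -0.0043 in the genotype comparisons, beside 0.0024, -0.009 and 0.0036 over all genes tested.

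**Figure D4:**
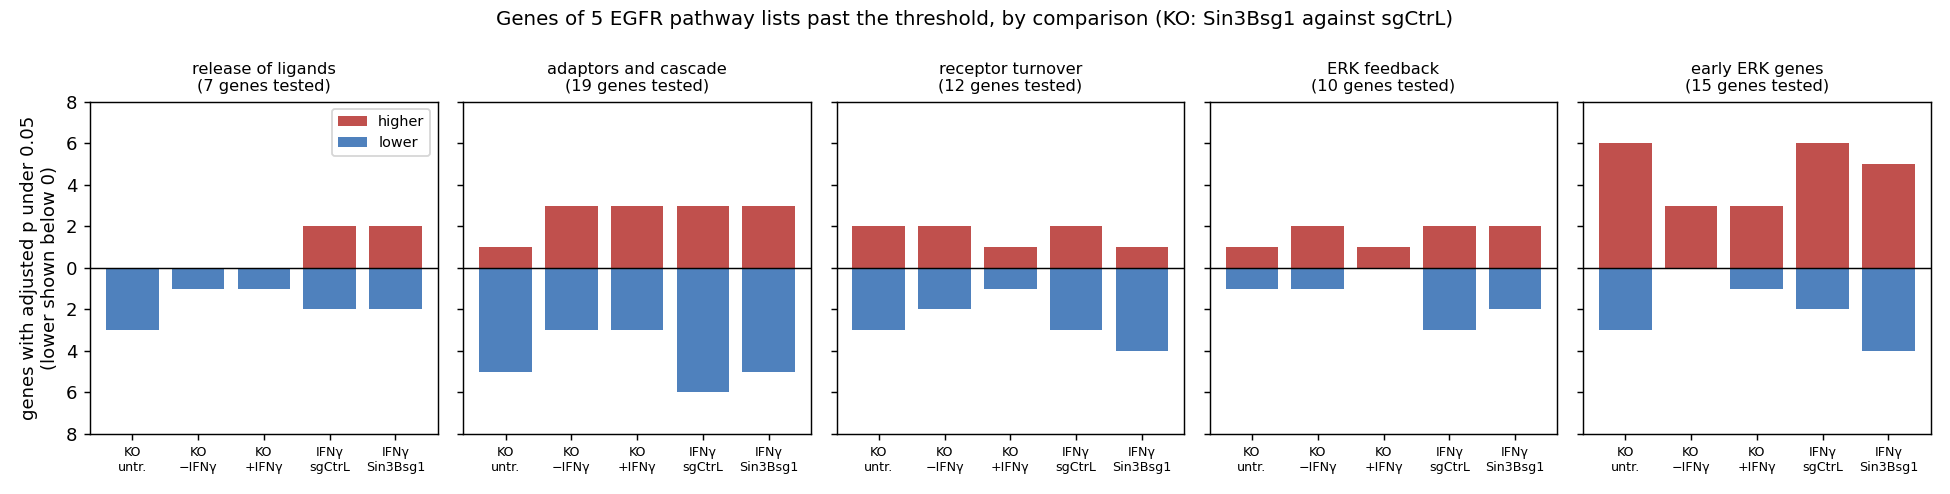
Number of genes of 5 pathway lists with an adjusted p under 0.05, higher above 0 and lower below 0, in the 3 genotype comparisons (KO, Sin3Bsg1 against sgCtrL) and the 2 IFNγ comparisons. Each list has genes in both directions over the 5 comparisons, and in the list for release of ligands no gene rose with genotype.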

How the data were processed

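Bulk RNA-seq of 16 libraries of mouse KPC1199 cells came from 2 experiments. The values deposited by the authors are estimated counts for each gene, not normalized, in 1 table per experiment (85.8% and 90.6% of the values, zeros included, are whole exactly as written, with no tolerance). The paper's methods name HISAT2 on mm9 and featureCounts, while the submitters' processing notes list fastp, HISAT2, StringTie, DESeq2 and mm39. Versions, annotation and strand are not given in the sources used here. The deposited tables also hold gene lengths in bases, used for TPM. Control columns bear a lacZ name and were taken as sgCtrL, since each table holds only that guide and Sin3Bsg1.

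Counts were rounded. In the untreated table, 324 features with neither name nor Ensembl ID (0.615 to 0.677% of counts) were left out. Depth ran from 18128055 to 32311721 counts per library, and a gene of 3 counts or fewer was taken as at the floor, which covers counting error only. edgeR 4.0.16 (TMM, filterByExpr, glmQLFTest, two-sided) in R 4.3.3 was fitted to each table apart, the 12 IFNγ libraries together with a mean per group, with Benjamini-Hochberg adjustment over all genes tested and a threshold of 0.05. Each SE was taken as the size of the log2 fold change over the square root of F. The biological coefficient of variation was 2.84% and 6.78%. Fits were tested on simulated data. Alternatives were DESeq2 1.42.0, its size factors, no filter, 10 counts in every library, a replicate block, 6 libraries only and leaving out each library. Python 3.11.15, pandas 2.3.3, numpy 2.4.6 and matplotlib 3.10.9 made tables and figures.

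Named genes were the 10 members, other family genes, and from each of 5 pathway lists the 3 largest changes per comparison with an adjusted p under 0.05, no overlap of the groups and a mean level of 5 CPM or more. *Sin3b* and *Irf1* served as checks. Of the lists first written, 2 genes are not reported here, and the lists were counted without them. The members and lists were chosen with earlier results of these data known. Promoters came from RefSeq (GRCm38.p6), positions from GENCODE vM39 (GRCm39) and the guide from the study's oligo list.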

Additional observations from a re-analysis of the deposited data

How the results depend on the processing

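The number of members called stayed within 1.5 times its main value in all 98 recomputations. Leaving out 1 library gave 7 in untreated cells, 3 to 4 without IFNγ and 4 to 5 with IFNγ for genotype, 5 to 6 in sgCtrL and 6 to 7 in Sin3Bsg1 for IFNγ, and 0 for the interaction. The calls that were lost, for *Errfi1*, *Tgfa*, *Erbb3* and *Hbegf*, are given beside their results, and their cause was not tested. *Errfi1* for genotype without IFNγ and *Hbegf* for IFNγ in Sin3Bsg1 were also lost with DESeq2 size factors (edgeR adjusted p = 0.0717 and 0.0621), no filter (0.212 and 0.102) and 10 counts in every library (0.0581 and 0.0697). *Tgfa* was also lost when only the 6 libraries compared were fitted, for genotype with IFNγ (0.26, edgeR adjusted p = 0.109) and for IFNγ in sgCtrL (0.30, edgeR adjusted p = 0.0595). Changes of sign were seen only in values that had not passed the test. On leaving out 1 library, *Errfi1* for genotype with IFNγ ran from -0.0079 to 0.067, *Btc* for IFNγ in Sin3Bsg1 from -0.20 to 0.029, and the interaction from -0.030 to 0.12 for *Egfr* and from -0.048 to 0.072 for *Erbb2*. Replicate numbers are shared between groups, but deviations of same-numbered libraries correlated from -0.0286 to 0.119, so the numbers were not taken as pairs. With the replicate block, the members called were 7, 4 and 5 for genotype, 6 and 6 for IFNγ and 0 for the interaction, the *Hbegf* rise in Sin3Bsg1 was lost (0.26, edgeR adjusted p = 0.0586), and the *Erbb2* interaction was 0.0017. Over all genes, the interaction called 17 with edgeR and 32 with DESeq2. Depth limits *Ereg* and *Epgn*, which could not be tested at 0 to 10 counts per library, and 2 or 3 libraries per group limit every other value.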
